A study of Mus musculus with 4 samples.

Results

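The 6 genes described here are Zfpm2 and Zfpm1, which encode the Gata cofactors FOG2 and FOG1, and the Gata factor genes Gata2, Gata3, Gata4 and Gata6. Peaks of dimethylated histone H3 lysine 36 (H3K36me2) in or within 100 kb of them (GRCm38) were counted in 2 peak lists. These windows held 7 of the 7699 peaks of the melatonin list and 6 of the 8361 peaks of the untreated list. The genes were chosen by measured values, since an untreated peak inside Zfpm2 had one of the highest folds over input of its list. That fold and the counts near Zfpm2 are therefore given as a description, with no test.

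The material was a culture of mesenchymal stem cells (MSCs) of mouse bone marrow, profiled by chromatin immunoprecipitation and sequencing (ChIP-seq). For 1 ChIP library the cells had 24 hours of 1 µM melatonin, for the other they were left untreated, and each was set against its own input library made without antibody. The series text calls the donors old, and strain, genotype, sex and the number of animals are not given in the sources used here. With 1 ChIP library per condition, each difference below is between 2 libraries and has no replicate check.

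FOG proteins are zinc-finger cofactors that act through Gata factors bound to DNA. They attach to the amino-terminal zinc finger of a Gata factor and bring corepressors such as the NuRD complex and CtBP to Gata sites. Zfpm1 and Gata2 are best known from blood cell formation, Gata3 from T lymphocytes, and Zfpm2, Gata4 and Gata6 from the heart, gonads and endoderm. Gata2 and Gata3 are also known to hold back the step from preadipocyte to fat cell, one of the fates open to MSCs. H3K36me2 is a broad mark of gene bodies and intergenic chromatin, written by NSD1, NSD2 and related enzymes.

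No peak of either library touched an end of any of the 6 genes, and the bodies of Zfpm1 and the Gata factor genes were free of peaks. The RefSeq promoter table (GRCm38.p6) held 3 of the 6 members, Zfpm1, Gata2 and Gata3. The 250 bases upstream of a start are shown for 2 of them, Zfpm1 because melatonin peaks lay on both sides of the gene, and Gata3 because both libraries had a peak at 1 site just beyond 100 kb. They are written 5′ to 3′, and capitals mark CG pairs. The Zfpm1 stretch is chr8:122281891-122282140 on the plus strand and the Gata3 stretch is chr2:9878601-9878850 on the minus strand.
Zfpm1: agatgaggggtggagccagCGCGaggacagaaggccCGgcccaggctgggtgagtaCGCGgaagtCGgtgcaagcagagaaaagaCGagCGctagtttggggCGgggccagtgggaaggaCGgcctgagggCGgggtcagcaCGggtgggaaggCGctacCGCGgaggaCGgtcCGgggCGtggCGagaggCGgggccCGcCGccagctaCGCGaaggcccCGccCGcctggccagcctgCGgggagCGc
Gata3: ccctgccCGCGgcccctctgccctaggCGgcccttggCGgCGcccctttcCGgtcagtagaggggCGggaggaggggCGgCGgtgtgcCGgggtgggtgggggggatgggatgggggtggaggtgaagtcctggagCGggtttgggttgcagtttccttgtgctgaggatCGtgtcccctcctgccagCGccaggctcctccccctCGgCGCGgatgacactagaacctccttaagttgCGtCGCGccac
The Zfpm1 stretch held 28 CG pairs and the Gata3 stretch 19, against a median of 6 over 32817 such stretches in the table. The letters GATA, searched on both strands, occurred in neither stretch, while 53.6% of all stretches of this length held them. G and C made up 73.2% of the Zfpm1 stretch and 70% of the Gata3 stretch, and that share was not matched for base composition. The Zfpm1 stretch lay 79.3 kb from the nearest melatonin peak and 623 kb from the nearest untreated one. The Gata3 stretch lay 147 kb from the nearest peak in both libraries. Peaks at gene starts were rare throughout: 68 of the 32817 promoters (0.207%) touched a melatonin peak and 47 (0.143%) an untreated one.

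Zfpm2 was the only one of the 6 genes with a peak in its body, and it had peaks in both libraries. Among all 21631 protein-coding genes the body held a melatonin peak in 5.54% and an untreated one in 5.27%, and longer genes offer more sequence for a peak. With 100 kb added on each side, 3 of 6 members (Zfpm2, Zfpm1 and Gata6) had a melatonin peak, where 29.9% of all genes did. Of the 6, Zfpm2 and Gata6 had an untreated peak in that window, where 26.7% of all genes did. Since Zfpm2 was chosen for its peak, nothing is read from these shares. None of the 7 melatonin peaks overlapped an untreated peak by 1 bp or more, nor did any of the 6 untreated peaks overlap a melatonin one, where 6.12% of all melatonin peaks and 5.6% of all untreated peaks did.

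**Figure D1:**
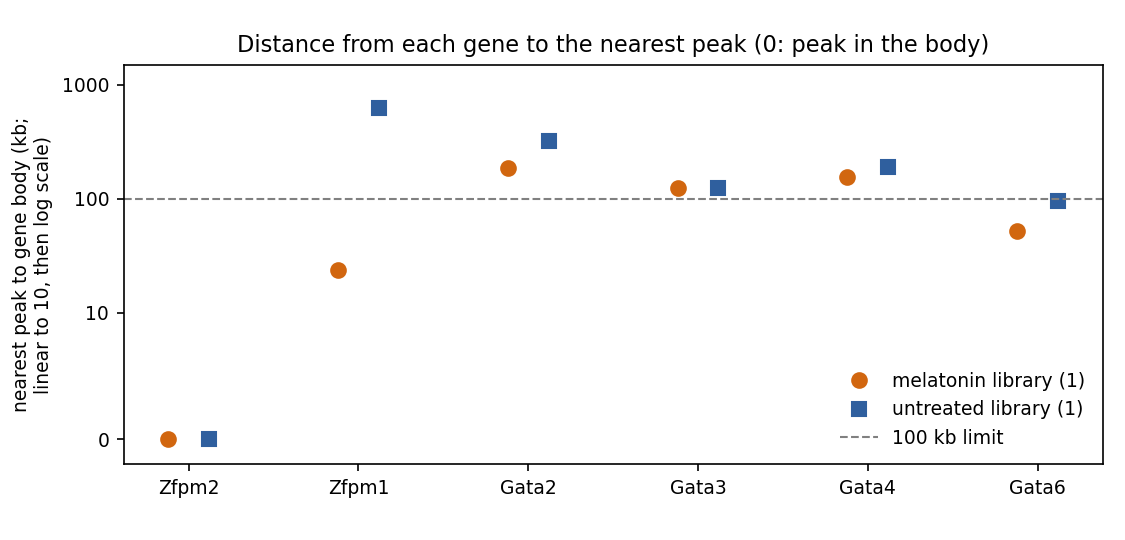
Distance in kb from each of the 6 gene bodies (x axis) to the nearest peak of the melatonin library (circles) and of the untreated library (squares), on an axis that is linear to 10 kb and logarithmic above. Zfpm2 sits at 0 in both libraries, Zfpm1 shows the widest gap between libraries (23.5 against 623 kb), and Gata2, Gata3 and Gata4 lie above the dashed 100 kb limit in both.

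Zfpm2 spans 450 kb of chromosome 15, from 40655042 to 41104592. It held 3 melatonin peaks, at 40676366 to 40677366, at 40903781 to 40904781 and at 40964348 to 40965348. Their midpoints fell at 4.85%, 55.4% and 68.9% of the gene's length, counted from its lower coordinate. The untreated library had 4 peaks in the gene, at 40730595 to 40731595, 40925130 to 40926130, 40989007 to 40990007 and 40992920 to 40993920, with midpoints at 16.9%, 60.2%, 74.4% and 75.3% of its length. One more untreated peak, at 40649455 to 40650455, lay 4.59 kb below the lower end of the gene. The counts in the body have 95% exact Poisson intervals of 0.619 to 8.77 for the 3 and 1.09 to 10.2 for the 4, given as a description.

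Melatonin and untreated peaks took turns along most of Zfpm2. Such orders were not counted in other genes, so this is not read as particular to Zfpm2. From the lower end, the order was untreated, melatonin, untreated, melatonin, untreated, melatonin and then 2 untreated peaks, which were 2.91 kb apart. Each melatonin peak had an untreated peak 25.9, 20.3 or 23.7 kb away, a median of 23.7 kb. Over the 908 melatonin peaks in protein-coding genes of at least 300 kb, the median distance to the nearest untreated peak was 27.9 kb (quartiles 10.6 and 81.4 kb). Over all 489 melatonin peaks of chromosome 15, inside genes or not, it was 20 kb. The spacing in Zfpm2 therefore lay inside the middle range for long genes. From the untreated side the distances in the gene ran from 20.3 to 53.2 kb, against a median of 33.8 kb over 1020 untreated peaks in long genes.

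The peaks in Zfpm2 were not spread evenly. Of the 7 in the body, 2 lay below the middle of the gene, 1 from each library, and 5 lay above it. A stretch of 172 kb between the untreated peak at 40730595 and the melatonin peak at 40903781 held no peak of either library. The last 111 kb of the gene, 24.6% of its length, held none either. Outside the 100 kb flanks the next peaks were a melatonin peak 185 kb above the gene, at 41290039 to 41291590 (fold over input 6.3), and an untreated peak 133 kb below it, at 40520821 to 40521821 (fold 4.19).

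**Figure D2:**
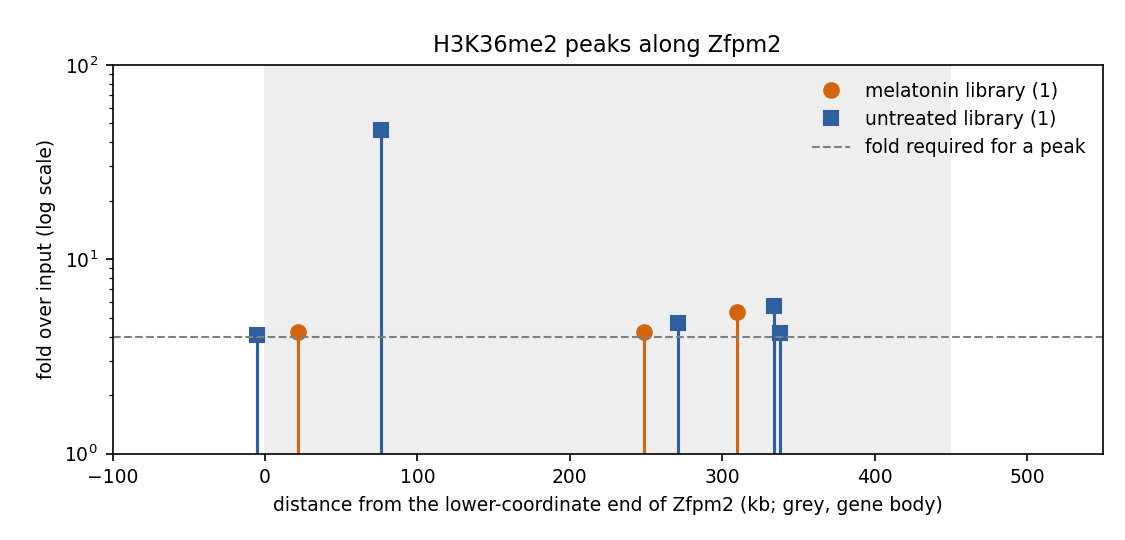
Fold over input on a log axis (y) of each peak against its distance in kb from the lower-coordinate end of Zfpm2 (x), with the gene body in grey, melatonin peaks as circles and untreated peaks as squares. All but 1 of the 8 peaks stand between 4.06 and 5.77, close above the dashed line at the required fold of 4, and the untreated peak at 76.1 kb stands at 46.14.

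The folds of these peaks lay between 4.06 and 5.77, close above the required 4, apart from 1. The medians over all peaks, 5.11 with melatonin and 4.87 without, lay close above it too. The deposited fold over input, which is the authors' ratio of ChIP to input tags after scaling, was 4.22, 4.24 and 5.36 for the melatonin peaks in the order of their position. For the untreated peaks, from the one below the gene upward, it was 4.06, 46.14, 4.7, 5.77 and 4.17. The peak with a fold of 46.14 had the authors' lowest p over input of the 13 peaks near the members, 4.63e-24. Only 1 peak of the untreated list had a higher fold, at 55.11, and 3 peaks shared the value 46.14.

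That peak did not stand out in its ChIP tags. It held 18 tags, as many as the untreated peak at 40989007, and fewer than the 19.5 at 40992920 and the 19 below the gene. The untreated peak at 40925130 held 16.5. Its input count was 0.5 tags, the smallest step in the list, which scaling brought to 0.4. The other 4 untreated peaks near Zfpm2 had 3.1 to 4.7 scaled input tags, where the genome-wide rate is 6.6 per kb. The fold of 46.14 has a 95% Clopper-Pearson interval of 4.39 to 48900 from counting error, so its upper side is not set by the data. With a count of 0.5 tags the interval is approximate. With 1 more input tag it would be 15.4, and with 3 more it would be 6.59. At the median input of the untreated list, 3.5 scaled tags per kb, it would be 5.14. In the untreated list 20 peaks (0.239%) had at most 0.5 input tags, and the melatonin list had 82 (1.07%). The input libraries differed in depth, so the same cutoff in unscaled tags is not like for like. These shares are therefore not compared between the lists.

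Measured against the genome-wide tag rate, all 13 peaks near the members were alike in ChIP signal. Tags per kb of ChIP were 2.32 to 2.76 times that rate in the 7 melatonin peaks (median 2.55) and 2.5 to 2.95 times in the 6 untreated peaks (median 2.73). The medians over all peaks of the lists were 2.61 and 2.65, with 5th to 95th percentiles of 2.32 to 3.1 and 2.35 to 3.26. Most peaks of both lists were thus as alike. Input tags per kb were 0.324 to 0.649 times the rate in the melatonin peaks. In the untreated peaks they were 0.0606 to 0.712 times the rate, so input lay below the genome-wide rate at each of the 13. The required fold of 4 over input fixed this in advance, since no ChIP value of the 13 reached 4 times the rate. Input also lay below the rate in most peaks of both lists, with medians of 0.486 and 0.53 times the rate and 95th percentiles of 0.649 and 0.712. The part of low input in the calls was not tested. The peak finder's own score exceeded the required number of tags (18 and 17) by 0 to 1.5 in the melatonin peaks and by 0.5 to 2.5 in the untreated peaks. Of the 13 peaks, 12 were 1000 bp wide, the minimum, the exception being the melatonin peak near Gata6.

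**Figure D3:**
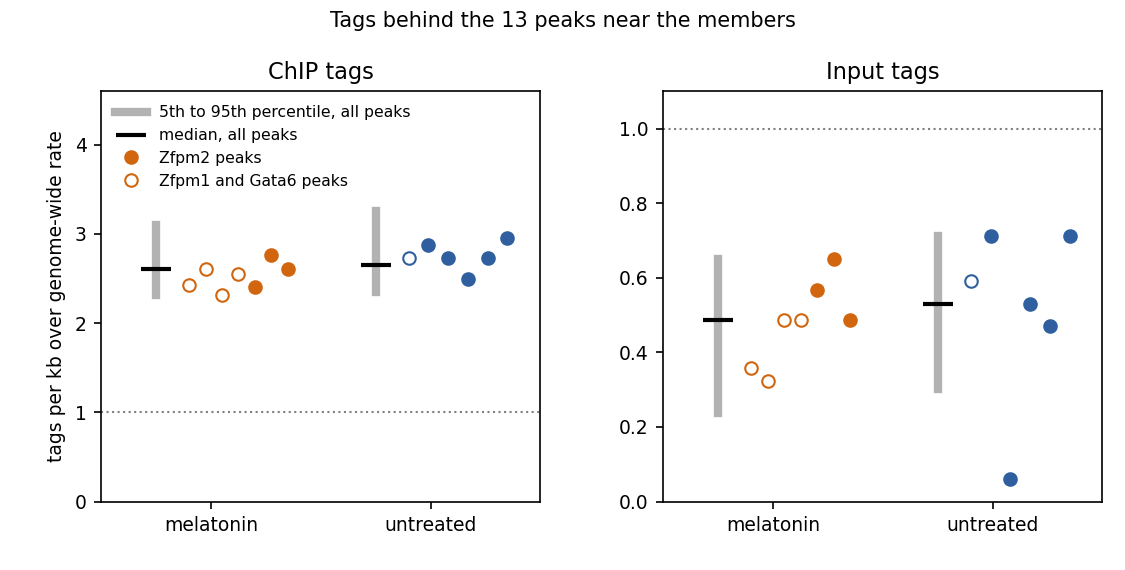
ChIP tags (left) and input tags (right) per kb, each divided by the genome-wide rate (y), for the peaks near Zfpm2 (filled) and near Zfpm1 and Gata6 (open) in each library (x), beside the 5th to 95th percentile (grey bar) and median (black line) of all peaks in the list. ChIP values stay between 2.32 and 2.95 in all 13 peaks, while 1 untreated Zfpm2 peak lies at 0.0606 for input, far below the other 12.

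Zfpm2 lay in a peak-rich region. From 1 Mb below to 1 Mb above the gene, its body peaks included, there were 23 melatonin and 27 untreated peaks. That was more than around 98.1% and 98.2% of protein-coding genes, though this window is wider for longer genes. The median over all genes was 3 and 2. Per length, the gene body held 6.67 melatonin and 8.9 untreated peaks per Mb. Among the 764 protein-coding genes of 0.5 to 2 times its length (225 to 898 kb), 82.5% were less dense by melatonin peaks and 86.5% by untreated peaks. A body peak was present in 43.8% of these genes with melatonin, in 43.3% without and in 31.9% in both lists, so a long gene with peaks in both was common.

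The genes most like Zfpm2 in the peaks per Mb of both libraries, among named genes of that length range, were Tbc1d5, Erc2 and Celf2. Likeness was the straight-line distance between the pairs of densities, over 2 libraries. Tbc1d5, which encodes a GTPase regulator of endosome traffic, spans 448 kb of chromosome 17 and had the same counts of 3 and 4 peaks, at a distance of 0.0366 per Mb. Erc2, a gene for a presynaptic scaffold protein, had 6 and 7 peaks in 856 kb (distance 0.796 per Mb). Celf2, an RNA-binding protein gene, had 5 and 8 peaks in 857 kb (0.946 per Mb).

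**Figure D4:**
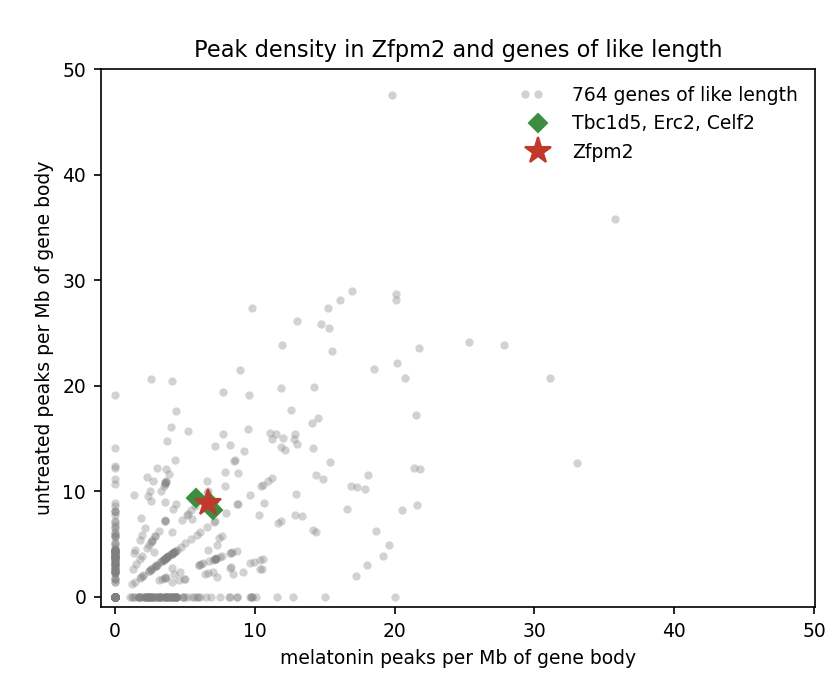
Untreated (y) against melatonin (x) peaks per Mb of gene body for the 764 genes of 0.5 to 2 times the length of Zfpm2 (grey points), with Zfpm2 as a star and Tbc1d5, Erc2 and Celf2 as diamonds. Zfpm2 sits at 6.67 and 8.9, in the upper part of the cloud but below 133 genes by melatonin and 102 by untreated peaks.

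Zfpm1, the cofactor gene known from red cell and platelet formation, had peaks nearby in the melatonin library and none in the untreated library. Of all protein-coding genes, 13.8% had a peak in or within 100 kb in the melatonin library alone. Zfpm1 (chromosome 8, 122281856 to 122337862) had no peak in its body. Of the 3 melatonin peaks within 100 kb, those at 122196353 to 122197353 (fold 8.04, 16.1 scaled ChIP and 2 input tags) and 122201503 to 122202503 (fold 4.78, 14.3 and 3 tags) lay inside Zfp469, the zinc-finger gene next to it. The other, at 122361400 to 122362400 (fold 5.22, 15.7 and 3 tags), lay inside Trhr2, a thyrotropin-releasing hormone receptor gene. All 3 thus fell in the bodies of neighbouring genes, 84.5, 79.4 and 23.5 kb from Zfpm1.

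The untreated count of 0 near Zfpm1 has a 95% exact Poisson upper limit of 3.69, and the melatonin count of 3 an interval of 0.619 to 8.77. The intervals overlap, but they treat peaks as independent and hold no spread between libraries, so they are no test of the conditions. The nearest untreated peak, at 121657955 to 121658955 (fold 4.43), was 623 kb away, and the next melatonin peak beyond those 3 was 1810 kb away. Within 1 Mb of the gene there were 3 melatonin and 2 untreated peaks, equal to the medians over all genes.

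Gata2 and Gata3, the factor genes best known from blood and lymphocytes, had no peak within 100 kb in either library. The nearest melatonin peak to Gata2 (chromosome 6, 88193891 to 88207032) lay 185 kb above it, inside Eefsec, a selenocysteine elongation factor gene. It spanned 88392011 to 88393011 with a fold of 4.6. The nearest untreated peak lay 322 kb below the gene, at 87870924 to 87871924, with a fold of 4.61. Within 1 Mb of Gata2 there were 6 melatonin and 4 untreated peaks.

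Gata3 (chromosome 2, 9857078 to 9887953) had the 1 site that both libraries shared among the nearest peaks of the 6 genes. It lay 125 kb below the gene in both lists, just outside the 100 kb limit. The melatonin peak, at 9730849 to 9731849, fell entirely within the untreated peak, at 9730683 to 9731996, and no annotated gene overlapped either. The melatonin peak had 18.7 scaled ChIP and 4.5 input tags (fold 4.15), and the untreated peak had 22 and 4.3 (fold 5.13). Per kb, ChIP tags were 3.03 and 2.54 times the genome-wide rate. Within 1 Mb of Gata3 the untreated library had 9 peaks and the melatonin library 3.

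Gata4 and Gata6, the factor genes known from heart and endoderm, differed in whether a peak came within 100 kb. Gata4 (chromosome 14, 63198914 to 63271712) had none. Its nearest melatonin peak was 155 kb away, at 63042618 to 63043618 (fold 6.43), and its nearest untreated peak was 191 kb away on the same side, at 63007305 to 63008305 (fold 6.04). These 2 peaks were 34.3 kb apart. Within 1 Mb there were 14 melatonin and 8 untreated peaks.

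Gata6 (chromosome 18, 11052510 to 11085636) had 1 peak of each library below its lower end. The melatonin peak, 52.4 kb away at 10998699 to 11000061, was 1362 bp wide with 20.4 scaled ChIP and 3 input tags (fold 6.81), and overlapped no annotated gene. The untreated peak, 96 kb away at 10955484 to 10956484, had 18 ChIP and 3.9 scaled input tags (fold 4.61) and lay in the noncoding gene Gm35814. The 2 peaks were 42.2 kb apart. The untreated peak is the member peak closest to the inside of the 100 kb limit, and the shared site at 125 kb from Gata3 is the closest outside it.

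Body peaks were rare in the other genes of the pathway, as they were in all genes. Of 40 genes on a list of further GATA-type factors, FOG and corepressor partners, GATA partners and targets, 1 had a body peak with melatonin (2.5%) and 2 without (5%), where the shares over all genes were 5.54% and 5.27%. Pparg, which drives fat cell differentiation and is repressed by Gata2 and Gata3 in preadipocytes, had 1 body peak with melatonin (fold 5.07) and 4 without (best fold 10.57, on 1.6 scaled input tags). Mef2c, a cardiac partner of Gata4, had 2 untreated peaks (best fold 4.84) and no melatonin peak in its body. Of the 16 FOG and corepressor partners, among them the NuRD genes Chd4, Hdac1, Hdac2 and Mta1 to Mta3, none had a body peak in either library.

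Within 100 kb, 18 of the 40 list genes (45%) had a melatonin peak and 7 (17.5%) an untreated one, where 29.9% and 26.7% of all protein-coding genes did. The median number of peaks per gene was 0 in each library, for the list as for all genes. All 7 genes with an untreated peak also had a melatonin peak. Of the 40 genes, 11 had a melatonin peak alone and 0 an untreated peak alone. Over all genes, 13.8% had a melatonin and 10.6% an untreated peak alone. These 11 were Nppa and Nppb, neighbouring natriuretic peptide genes, the NuRD genes Hdac2, Rbbp4 and Gatad2a, and Bmp4, Cebpa, Il5, Lmo2, Nkx2-5 and Nr2f1. Of the other NuRD genes on the list, Mta3, Mbd2 and Gatad2b had peaks in both libraries, and Chd4, Mta1, Mta2, Hdac1, Rbbp7 and Mbd3 had none. The melatonin peaks near list genes numbered 30 and the untreated peaks 27, and none of them overlapped across the libraries, where 6.12% of all melatonin and 5.6% of all untreated peaks did. The highest counts were at Vcam1, an adhesion molecule gene (5 melatonin and 8 untreated peaks), and at Trps1, an atypical GATA-type factor gene (6 and 4), all of them outside the gene bodies. The 1 melatonin peak near Nppa was also the 1 near Nppb, so the 18 and the 11 genes count it under both. The list was chosen with earlier results of these data known, and these shares have no replicate check.

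**Figure D5:**
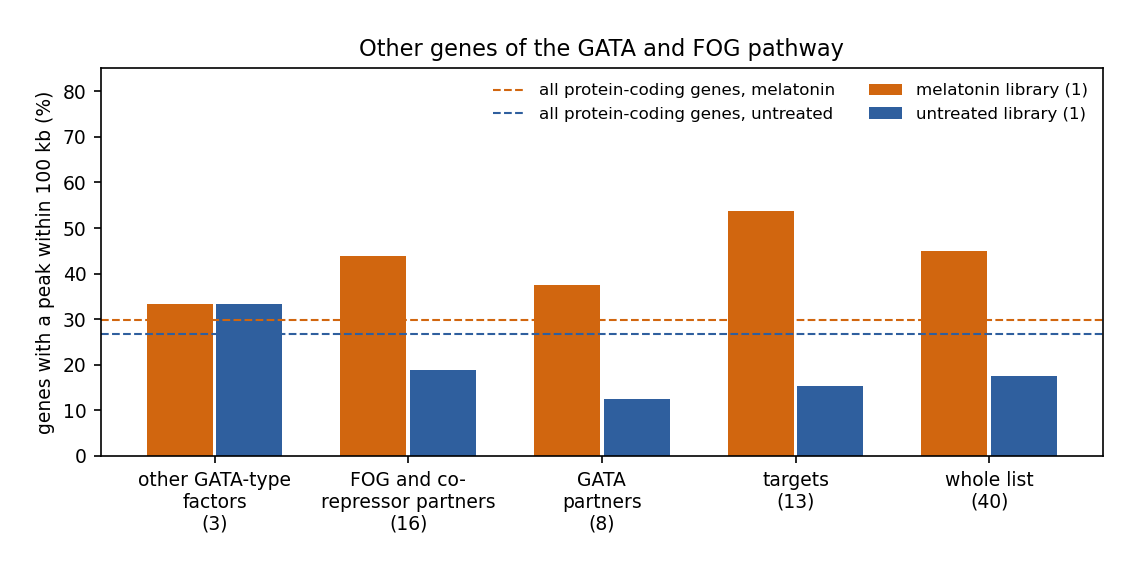
Percentage of genes with a peak in or within 100 kb (y) for each role of the 40-gene list and the whole list (x, number of genes in brackets), as bars for the melatonin and untreated libraries, with dashed lines for all protein-coding genes. The melatonin bar of the whole list stands at 45% above its line at 29.9%, and the untreated bar at 17.5% below its line at 26.7%.

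The ChIP depth behind these values was alike in the 2 libraries. It was 14180076.5 tags with melatonin and 13198427.5 without, of which 1.12% and 1.24% lay in peaks. The input depth was not alike. Scaling multiplied the melatonin ChIP tags by 0.87 and the untreated input tags by 0.78. The melatonin input was thus shallower than its ChIP library, and the untreated input was deeper than its own. A region with no call can still carry the mark below the tag minimum. A peak list does not measure expression, so the cell type cannot be checked from it. Of 9 MSC marker genes, 1 had a body peak with melatonin (Nt5e) and 2 without (Nt5e and Lepr), of 6 haematopoietic markers none did, and of 4 endothelial markers Pecam1 and Emcn did with melatonin and Emcn did without. Body peaks were found in 5.54% and 5.27% of all protein-coding genes, and nothing is read from lists this short.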

How the data were processed

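H3K36me2 ChIP-seq peaks of 2 libraries were analysed, 1 per condition, so no test between conditions was possible. Conditions follow each sample's treatment label, because the treatment protocol names melatonin for all 4 samples. The members and lists were chosen with earlier results of these data known.

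Per the file headers, the authors ran HOMER findPeaks (version not stated in the sources here) in histone style on each library against its input, without pooling and with the local filter off. A 1000 bp window had to reach 18 (melatonin) or 17 (untreated) tags, 4 times the input and a Poisson p of 1e-04 over it. The submitters' processing notes also name BWA 0.7.13, MACS2 2.1.0 and Picard 1.126. Deposited ChIP and input tags are a signal in steps of 0.5, scaled to the shallower library of each pair. The deposited normalized count is a signal per 10000000 tags, and the deposited score is the region's tag score. Near the members every score reached the tag minimum, while the unscaled ChIP tags of some peaks were fewer, down to 16.5 in each library. The deposited fold divides scaled ChIP by input tags, as a ratio. The deposited p-value is an unadjusted Poisson p. Between libraries, tags were compared only per kb over the genome-wide rate (6.17 and 6.6 tags per kb).

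The notes name mm39, but peaks on chromosomes 3 and 7 reach 159805034 and 145328623, past the ends of both in that build. Coordinates were read as GRCm38 and joined to the RefSeq genes of GRCm38.p6, where all 6 members and all 40 listed genes matched. That table has no strand or exons, so exons and introns were not separated.

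Python 3.11.15, numpy 2.4.6, pandas 2.3.3, scipy 1.17.1 and matplotlib 3.10.9 were used. Overlap meant 1 bp or more, and distances run between edges. Intervals are 95% exact Poisson for counts and Clopper-Pearson for folds, on unscaled tags. The latter are approximate, since tags come in steps of 0.5 and the formula is exact for whole counts only. They reflect counting error alone, since no molecular identifiers mark independent molecules. Counting was tested on simulated peaks. Named were all 6 members, coding genes holding their flank peaks, list genes with a body peak, and the 3 genes of 0.5 to 2 times the length of Zfpm2 nearest to it in peak density. Other list genes were named after their values were seen. Alternatives were stricter thresholds, equal list sizes, other flanks, other overlap rules and midpoints.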

Additional observations from a re-analysis of the deposited data

How the results depend on the processing

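The 7 melatonin and 6 untreated peaks near the 6 genes depended on the threshold and on the flank. At a fold over input of at least 6 they were 2 and 1, and in Zfpm2 0 and 1, in place of 3 and 4. The 1 left in Zfpm2 is the untreated peak on 0.5 input tags. With each list limited to its 3849 peaks of lowest p they were 2 and 2, and in Zfpm2 0 and 2. With a flank of 50 kb the melatonin count was 4 and the untreated count 5, and with the gene body alone they were 3 and 4. Which library had more peaks thus depended on the flank. With a flank of 200 kb the counts were 12 and 11, and all 6 genes then had a melatonin peak and 4 an untreated one. The median distance from a melatonin peak in Zfpm2 to the nearest untreated peak, 23.7 kb, was 22 kb at a p of at most 1e-05 and 24.7 kb between midpoints, and could not be computed at a fold of at least 6 or with 3849 peaks per list, where no melatonin peak was left in the gene. The overlap of melatonin with untreated peaks near the 6 genes was also 0 with a gap of 1 kb allowed. Stricter thresholds and a larger required overlap could not raise it from 0 and say nothing of its stability. The peaks near the 6 genes held at most 23.5 ChIP tags, and the effect of depth on the counts was not tested. No paired analysis was possible because each condition had 1 library.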

Other observations

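Along Zfpm2 the untreated peaks at 40989007 and 40992920 were the only neighbouring peaks of 1 library, with the nearest melatonin peak 23.7 and 27.6 kb away. Zfpm2 (27 untreated and 23 melatonin peaks) and Gata3 (9 and 3) had more untreated than melatonin peaks within 1 Mb. Zfpm1 (2 and 3), Gata2 (4 and 6), Gata4 (8 and 14) and Gata6 (8 and 12) had fewer. These counts come from 1 library per condition and were not tested.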
